A study of Bos taurus with 11 samples.

Results

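BRD2 and BRD3 are BET proteins, readers of acetylated lysine on histones, and both genes were followed in rumen epithelial primary cells (REPC) of cattle. The genes were taken by their symbols in the annotation of the called ChIP-seq intervals. No measured value entered that rule, but earlier results of these data were known when it was made. They are 2 of the 23869 genes for which a gene start could be placed. For each gene the promoter, taken as 2 kb on either side of the gene start, and the gene body were described with all 5 ChIP targets in both conditions.

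The treated group was REPC kept for 24 h with 5 mM butyrate, and the control group was REPC cultured without it. All cells came from 1 Holstein bull calf aged 2 weeks that was fed milk replacer only, so both groups share the animal, and the values describe 1 animal. Each group had 1 library for H3K27ac, H3K4me3, H3K4me1, H3K27me3 and CTCF, which gives 10 ChIP libraries with 371758 intervals, and 1 input library served as background of peak calling. Because no target had a replicate in either group, no test between the groups was possible, and each difference compares 2 libraries and not the conditions.

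BET proteins carry tandem bromodomains that bind acetylated lysines, above all on histone H4, and an extraterminal domain that binds other chromatin proteins. In mammals BRD2 and BRD3 are made in most tissues and BRDT in the testis. BRD2 is known for its place at active promoters and, in mouse and human cells, next to CTCF, and BRD3 for binding acetylated GATA1 in mouse blood cells. Butyrate, a fatty acid made by rumen microbes, inhibits histone deacetylases, the enzymes that remove the acetyl groups BET proteins bind.

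The histone marks read here stand for known kinds of chromatin. H3K27ac lies on active promoters and enhancers, H3K4me3 on promoters, H3K4me1 on enhancers and the flanks of promoters, and H3K27me3 on regions held silent by Polycomb. CTCF binds DNA at boundaries and loop anchors. The signal of an interval is a tag density, given as its mean over the interval (average signal) or its value at the summit (peak signal). How signal was scaled between libraries is not stated, and the interval table gives no read totals. Those in the study's own material were not used, so no depth is set beside a value. A stretch without a called interval has no value, which is not the same as no signal.

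For H3K27ac, the butyrate library held 48701 intervals with a median average signal of 23.8 and the control library 38148 with 26.5. Cell type markers were read from H3K4me3 at their promoters. Of 12 markers of stratified epithelium, 9 were marked after butyrate (25.6 to 115) and 6 in control (24.1 to 149), and TP63 and CDH1 had no interval at the start used. KRT5 had 61.0 after butyrate and 65.9 in control, and PKP1 had 111 and 34.04. ITGB4 had 115 after butyrate and 149 in control, DSP had 103 and 110, and ESRP1 had 88.9 and 92.3. LAMB3, KRT14, KRT17 and GRHL2 were called after butyrate alone, and COL17A1 in control alone. Of 7 fibroblast markers with a start, 4 were marked after butyrate (54.7 to 125) and 5 in control (28 to 101), among them COL1A1 with 87.1 and 101, PDGFRA with 125 and 46.8 and TWIST1 with 99.8 and 44.4. Markers of smooth muscle were marked in 4 of 4 after butyrate and 2 of 4 in control, of endothelium in 1 of 4 in both (KDR 66.8 and 36.4), and of immune cells in 1 of 4 after butyrate and 0 of 4 in control. The part of other cell types in the values of BRD2 and BRD3 was not tested.

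BRD2 and BRD3 differed in promoter H3K27ac in opposite directions between the groups. At BRD2 the mark was 3.67-fold lower after butyrate, and at BRD3 it was 1.33-fold higher. BRD2 had 28.2 after butyrate against 104 in control, a log2 ratio of -1.88. BRD3 had 37.1 after butyrate against 27.9 in control, a log2 ratio of 0.41. The starting levels also stood far apart, since the control signal of BRD2 lay at the percentile 98.6 of all control promoters with the mark and that of BRD3 at the percentile 14.3. After butyrate the order was turned, with BRD2 at the percentile 45.8 and BRD3 at 75.2.

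**Figure D1:**
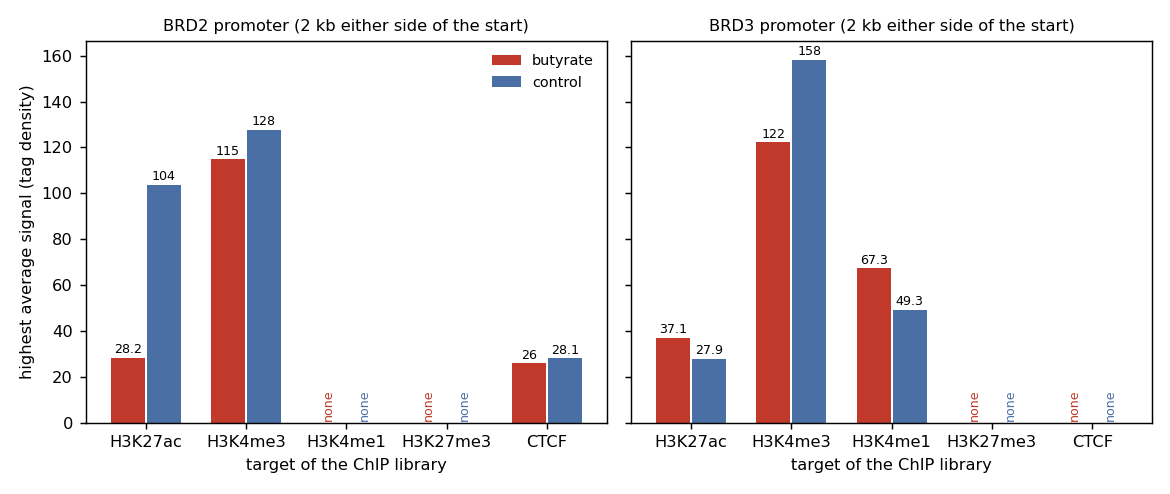
Highest average signal (tag density, vertical axis from 0) of the intervals that reached the promoters of BRD2 (left) and BRD3 (right), for each of the 5 ChIP targets, with butyrate in red and control in blue, 1 library per bar. For H3K27ac the butyrate bar of BRD2 stands at 28.2 beside 104 in control and that of BRD3 at 37.1 beside 27.9, and "none" marks a promoter without a called interval.

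Most promoters had a lower H3K27ac tag density in the butyrate library, with a median log2 ratio of -0.78 over the 7865 promoters marked in both libraries. The zero of this ratio rests on a scaling that is not stated. When the libraries were scaled on their top 10% of promoters, the median was 0.04, so a general loss of the mark cannot be read from it. At least 2-fold lower signal was found at 33.7% of them and at least 2-fold higher signal at 0.191%. BRD2 was past the 2-fold limit, which is common against that background, yet only 62 of the 7865 promoters had a lower ratio. BRD3 did not pass 2-fold, but a ratio above 0 was held by 718 promoters, 9.13% of those compared, and 174 had a higher ratio than BRD3. Neither gene was ranked among promoters of similar control signal, so these places also carry their different starting levels. Relative to the median promoter BRD2 was lower by a log2 value of -1.10 and BRD3 higher by 1.19.

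**Figure D2:**
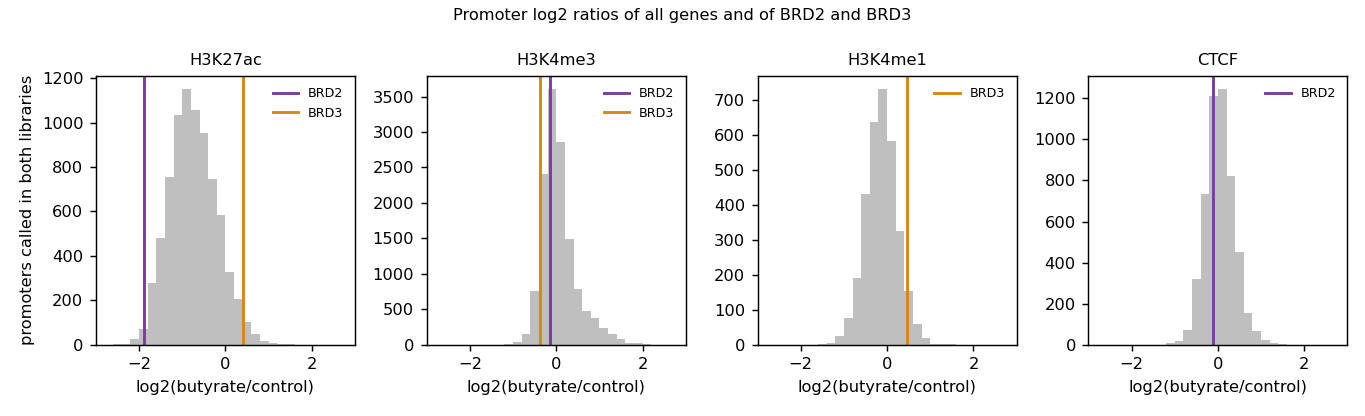
Number of promoters (vertical axis) by log2 ratio of average signal, butyrate over control (horizontal axis), for promoters marked in both libraries, with the values of BRD2 (purple) and BRD3 (orange) as vertical lines. In the H3K27ac panel BRD2 lies in the low tail at -1.88 and BRD3 in the high tail at 0.41, and in the H3K4me3 panel they lie at -0.15 and -0.37, below the median of -0.01.

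BRD2 lies on chromosome 23 of the assembly UMD3.1, with its start at 7236034 on the plus strand and a promoter of 7234034 to 7238034, and 27 intervals listed it. It stands in the class II region of the major histocompatibility complex. All 27 intervals were also placed inside BOLA-DOA, a class II gene annotated over the same stretch on the opposite strand, whose start at 7264258 is 28.2 kb away, so no interval near BRD2 can be assigned to BRD2 alone. The start of BOLA-DOA had no H3K27ac, H3K4me3, H3K4me1 or CTCF interval in either group, and its H3K27me3 signal was 6.32 after butyrate and 8.18 in control. BOLA-DMA, the next named gene on the other side, 31.7 kb from BRD2, had no interval of any target at its promoter.

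In control the H3K27ac of BRD2 formed 1 unbroken interval of 6976 bp, from 7234279 to 7241255. It ran from 1.755 kb before the start to 5.221 kb into the gene, held 4 CpG islands, and had its summit 0.194 kb before the start with a peak signal of 257. Only 195 of the 38148 control H3K27ac intervals were longer, and its average signal of 104 was at the percentile 99.6 of the library. After butyrate the same stretch held 5 separate intervals with average signals of 23.9, 28.2, 33.8, 22.4 and 46.1. The highest of them, with a peak signal of 68, had its summit 3.87 kb into the gene, and none of the other summits passed a peak signal of 45.

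The 5 butyrate intervals covered 3730 bp, 53.5% of the control stretch, at a mean signal of 32.5 against 104 in control. Breaking up was common among long control domains. The 545 control H3K27ac intervals of at least 5 kb had a median of 65.3% covered after butyrate, 199 of them were less covered than the BRD2 domain, and the median number of butyrate intervals inside was 4. In covered bases the BRD2 domain was thus not far from the middle of these long domains, at the percentile 36.5. In the 4 kb promoter window itself 1733 bp were covered after butyrate and 3755 bp in control.

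Within the gene the counts and the covered bases of H3K27ac went in opposite directions. The annotation placed 7 butyrate intervals and 0 control intervals inside BRD2, because the file places an interval by its summit and that of the long control interval lay before the start. Counted in bases from the start to the last summit placed in the gene, at 11.134 kb, 3901 bp (35.0%) were covered after butyrate and 5221 bp (46.9%) in control. A covered share lower by at least 10 percentage points was found in 3.89% of the 9466 genes with a span of 10 kb or more, and 260 genes had a lower difference than the -11.9 points of BRD2. BRD2 reached the limit of 10 kb only through the butyrate H3K27ac summit at 11.134 kb, since its next summit lay at 9.678 kb. Its rank among these genes therefore rests on an interval of the library being compared. Beyond the control domain, butyrate cells had 2 further short intervals, at 9.678 kb with an average signal of 25.8 and at 11.134 kb with 29.0.

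**Figure D3:**
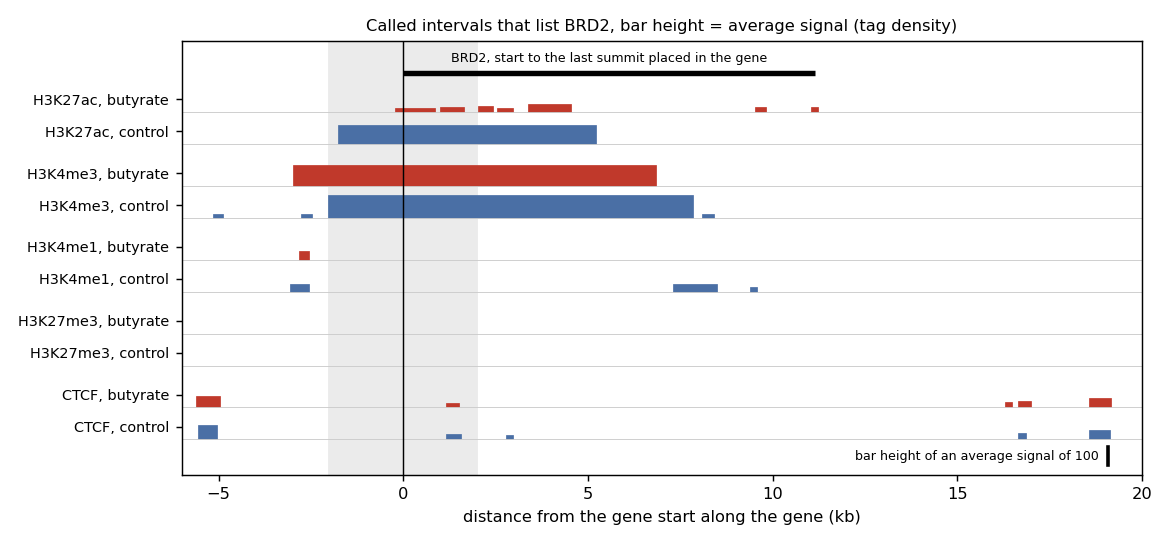
Called intervals that listed BRD2, drawn by distance from the gene start (kb, horizontal axis) with bar height as average signal (tag density), 1 row per library with butyrate (red) above control (blue) for each target, and the promoter window in grey. The control H3K27ac row shows 1 block of 6976 bp where the butyrate row shows 5 low pieces, while the H3K4me3 blocks of both groups have a similar length and height.

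The H3K4me3 domain of BRD2 had a similar length and signal in both groups, though not the same edges. It was 9822 bp long after butyrate and 9888 bp in control, with the summit at 4.126 kb in both libraries. Only 17 of 33804 butyrate intervals and 3 of 27292 control intervals of this mark were longer. The average signal was 115 after butyrate and 128 in control, a log2 ratio of -0.15 near the median of -0.01, and the peak signal was 343 and 332. For H3K4me3, 3.94% of promoters marked in both libraries were at least 2-fold higher after butyrate and 0.0963% at least 2-fold lower.

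Both edges of the BRD2 H3K4me3 domain lay further upstream after butyrate. After butyrate it ran from 2.988 kb before the start to 6.834 kb after it, and in control from 2.033 kb before to 7.855 kb after. The butyrate domain covered 89.7% of the control domain, where the 220 control H3K4me3 intervals of at least 5 kb had a median of 98.2% and 25 of them were less covered. Butyrate intervals covered 61.4% of the BRD2 span and control intervals 73.5%, a difference of -12.1 points. A share lower by at least 10 points in H3K4me3 was seen in 0.0317% of genes, and 2 of the 9466 genes had a lower value. This rank has limits, since the control share of BRD2 was at the percentile 99.97 of genes and few had as much to lose. The bases gained before the start lie outside the span, whose end was set by a butyrate H3K27ac summit. Without that summit BRD2 would not be among the 9466 genes. Short control intervals of H3K4me3 at 5.058 kb and 2.658 kb before the start and at 8.222 kb after it, with average signals of 22.1, 23.6 and 23.3, had no separate butyrate interval. The one at 2.658 kb lay within the butyrate domain.

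H3K4me1 was absent from the BRD2 promoter in both groups, as it was from 64.6% of all promoters. The nearest H3K4me1 interval lay 2.563 kb before the start after butyrate, with an average signal of 47.1, and 2.544 kb before it in control, with 41.4. Inside the gene, control cells had H3K4me1 at 7.998 kb (40.6) and at 9.406 kb (29.0), at and past the end of the H3K4me3 domain, and butyrate cells had no called interval there. The covered share was 0% after butyrate and 12.4% in control, and a share lower by at least 10 points was found in 6.73% of genes for this mark.

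CTCF was called at the same places around BRD2 in both groups, with a few weak exceptions. The promoter site, 1.31 kb into the gene after butyrate and 1.246 kb in control, had average signals of 26.0 and 28.1, a log2 ratio of -0.11. The strongest site, about 5.3 kb before the start, had 64.8 after butyrate and 79.8 in control. Past the gene, the site at 18.7 kb had 53.8 after butyrate and 52.6 in control, and that at 16.8 kb had 35.2 and 36.1. One further site was called in butyrate cells alone, at 16.4 kb with 31.3, and one in control cells alone, at 2.91 kb with 26.2, both low for this target, whose median average signal was 36.2 after butyrate and 37.8 in control.

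No H3K27me3 interval listed BRD2 or BRD3 in either group, and 63.9% of all promoters had none in either library. The nearest ones to BRD2 lay 14.4 kb before the start after butyrate (8.60) and 14.8 kb before it in control (10.3). The nearest to BRD3 lay 10.97 kb before the start in both, with 15.6 after butyrate and 25.3 in control. No H3K27me3 value can therefore be given for either gene.

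BRD3 lies on chromosome 11 with its start at 104892030 on the minus strand and a promoter of 104890030 to 104894030, and 52 intervals listed it. LOC104973512, an annotated locus on the same strand, starts 1018 bp before it and was listed with 39 of the 52 intervals, so the promoter values of BRD3 are shared with that start. The nearest named gene starts are those of WDR5, a subunit of H3K4 methyltransferase complexes, 34.1 kb away, and VAV2, a guanine nucleotide exchange factor, 95.7 kb away. At the WDR5 promoter H3K27ac was 33.5 after butyrate and 45.3 in control, a log2 ratio of -0.43. That ratio was below 0, unlike the one of BRD3, but like it above the median promoter at -0.78. At the VAV2 promoter H3K27ac was called after butyrate alone, with 36.6.

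Promoter H3K27ac of BRD3 was both stronger and wider after butyrate. The butyrate library had 4 intervals that reached the promoter and covered 1479 bp of it, and the control library had 1 that covered 549 bp. The highest butyrate interval had its summit 0.69 kb before the start, with an average signal of 37.1 and a peak signal of 52, and the control interval had its summit 0.61 kb before the start, with 27.9 and 37. The other butyrate intervals, at 0.11, 1.257 and 2.11 kb, had 23.0, 25.8 and 23.7 and no control interval opposite them. Averaged over the covered bases, the signal was 28.9 after butyrate and 27.9 in control, so on that measure the promoter differed in width more than in height.

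The H3K4me3 of the BRD3 promoter was longer after butyrate, and whether it was higher depended on the measure. A single interval of 3657 bp after butyrate, from 1.07 kb before the start to 2.587 kb after it, stood against control intervals of 1359 bp, 1514 bp and 199 bp over the same stretch. The butyrate interval had an average signal of 122, and the control ones had 158, 45.6 and 25.2. The highest average therefore gave a log2 ratio of -0.37, lower than all but 1209 of 13496 promoters. By peak signal the values were 292 after butyrate and 253 in control (log2 ratio 0.21), and by the mean over covered bases of the window 122 and 100.4 (0.29), so no direction can be given.

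H3K4me1 at the BRD3 promoter was 67.3 after butyrate and 49.3 in control, a log2 ratio of 0.45 where the median promoter had -0.13. A higher ratio was held by 184 of the 3244 promoters marked in both libraries, and 0.123% of them were at least 2-fold higher, which BRD3 was not. These intervals began 0.813 kb after the start in butyrate cells and 0.636 kb after it in control cells, on the gene side of the promoter. No CTCF interval reached the BRD3 promoter, as at 70.1% of all promoters. Control cells had a weak CTCF interval 2.882 kb before the start with 26.5, and the nearest butyrate one was 29.3 kb before it. Of all promoters with CTCF in control, 12.6% had it in control alone, and the BRD2 promoter was not among them.

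**Figure D4:**
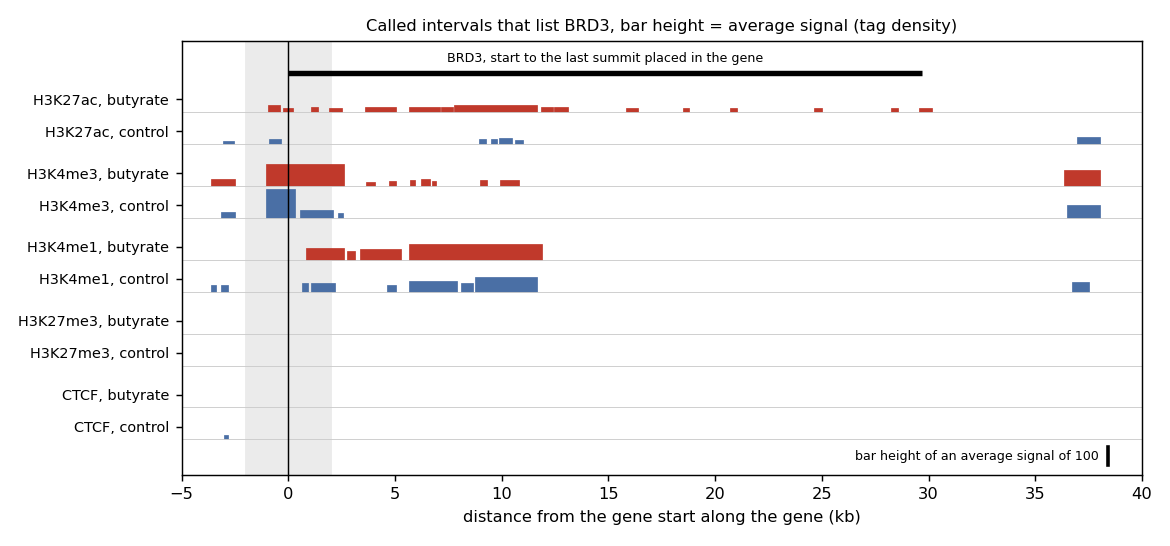
Called intervals that listed BRD3, drawn as distance from the gene start along the gene (kb, horizontal axis) with bar height as average signal (tag density), 1 row per library with butyrate (red) above control (blue) for each target, and the promoter window in grey. Butyrate H3K27ac intervals are spread from the promoter to 29.694 kb, whereas the control ones inside the gene lie between 8.952 and 11.013 kb.

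Inside BRD3 the difference was larger than at its promoter. The annotation placed 15 H3K27ac intervals in the gene after butyrate and 4 in control, and 361 of 23869 genes had a larger gain than these 11. From the start to the last summit placed in the gene, at 29.694 kb, 11594 bp (39.0%) were covered after butyrate and 1602 bp (5.40%) in control. A covered share higher by at least 10 points was found in 7.69% of the 9466 genes, and 162 genes had a larger difference than the 33.6 points of BRD3. The mean signal over the covered bases was 31.4 after butyrate and 29.1 in control. By this mean over the span, the gain lay in the extent of the mark more than in its height. In the stretch from 5.632 to 11.876 kb, where both libraries had intervals, the mean was 36.9 after butyrate and 29.1 in control. The last summit that sets the end of the span was itself one of the butyrate H3K27ac summits.

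The highest H3K27ac average signal of the gene body, in both groups, lay in a stretch rich in H3K4me1 in the first part of the gene. After butyrate 1 H3K4me1 interval of 6244 bp ran from 104880154 to 104886398, which is 5.632 to 11.876 kb into the gene, and only 45 of the 47404 butyrate H3K4me1 intervals were longer. Control cells had 3 intervals there, covering 91.3% of it, so the stretch carried H3K4me1 in both groups. Its mean signal was 84.1 after butyrate and 70.5 in control, and its peak signal was 139 and 123.

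Over these 6244 bp, H3K27ac covered 93.4% after butyrate and 25.7% in control, in 4 intervals each. The longest butyrate interval measured 3871 bp, from 7.771 to 11.642 kb, with an average signal of 40.8, and the control intervals measured 245 to 631 bp with average signals of 24.5 to 32.2. The peak signal was 64 after butyrate and 39 in control, a log2 ratio of 0.71. H3K4me3 covered 32.7% of the stretch after butyrate, in 5 intervals with average signals up to 38.4, and 0% in control. CTCF and H3K27me3 had no interval there in either group. The promoter mark H3K4me3 was low at this place, since the median average signal of its butyrate library was 48.0.

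Further into BRD3, from 11.998 to 29.694 kb, butyrate cells had 8 more H3K27ac intervals with average signals of 20.7 to 29.4, and control cells had none. The first of them reached the end of the stretch above, and 4 were below the median of 23.8 of the butyrate library. Over the whole span H3K4me3 covered 18.1% after butyrate and 6.79% in control, with 7 intervals and 2 intervals placed in the gene. A share higher by at least 10 points in H3K4me3 was found in 2.65% of genes, and 198 had a larger difference than the 11.3 points of BRD3. H3K4me1 was placed in the gene in 4 intervals after butyrate and 6 in control, yet covered 34.8% and 25.3% of the span, in fewer and longer intervals after butyrate, a difference of 9.46 points where 2.35% of genes reached 10 points.

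Outside the gene body, some intervals of control cells had none opposite them after butyrate. At 2.9 to 3.4 kb before the BRD3 start, control cells had H3K27ac (18.4) and H3K4me1 (35.2 and 38.3), and butyrate cells had neither, while H3K4me3 at 2.626 kb before the start was 35.3 after butyrate and 31.5 in control. Past the gene, near the start of LOC100848355 at 38.3 kb, H3K27ac (39.8) and H3K4me1 (56.7) were called in control alone, and H3K4me3 was 89.98 after butyrate and 72.0 in control. The higher H3K27ac after butyrate was therefore found in the promoter and body of BRD3 and not at these flanking sites.

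A wider set of 62 genes held P-TEFb, the kinase that releases paused RNA polymerase, and other partners of BET proteins, further bromodomain proteins, and readers with a YEATS or double PHD domain. BRDT, the testis member of the BET family, had no interval of any target at its promoter. Of the 62, 38 promoters had H3K27ac in both libraries, with a median log2 ratio of -0.74 beside -0.78 over all promoters, and none had a ratio above 0. At least 2-fold lower were 6 of the 38 (33.7% over all promoters), at least 2-fold higher 0, called in control alone 10 and called after butyrate alone 2. Over all promoters, 30.4% of those marked in control were called in control alone, and 3.64% of those unmarked in control were called after butyrate alone. Together with BRD2 and BRD3, 40 genes could be ranked by their ratio, in which BRD3 came first and BRD2 was number 39. By control signal, among the 50 of these genes marked in control, BRD2 was number 1 and BRD3 number 47.

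**Figure D5:**
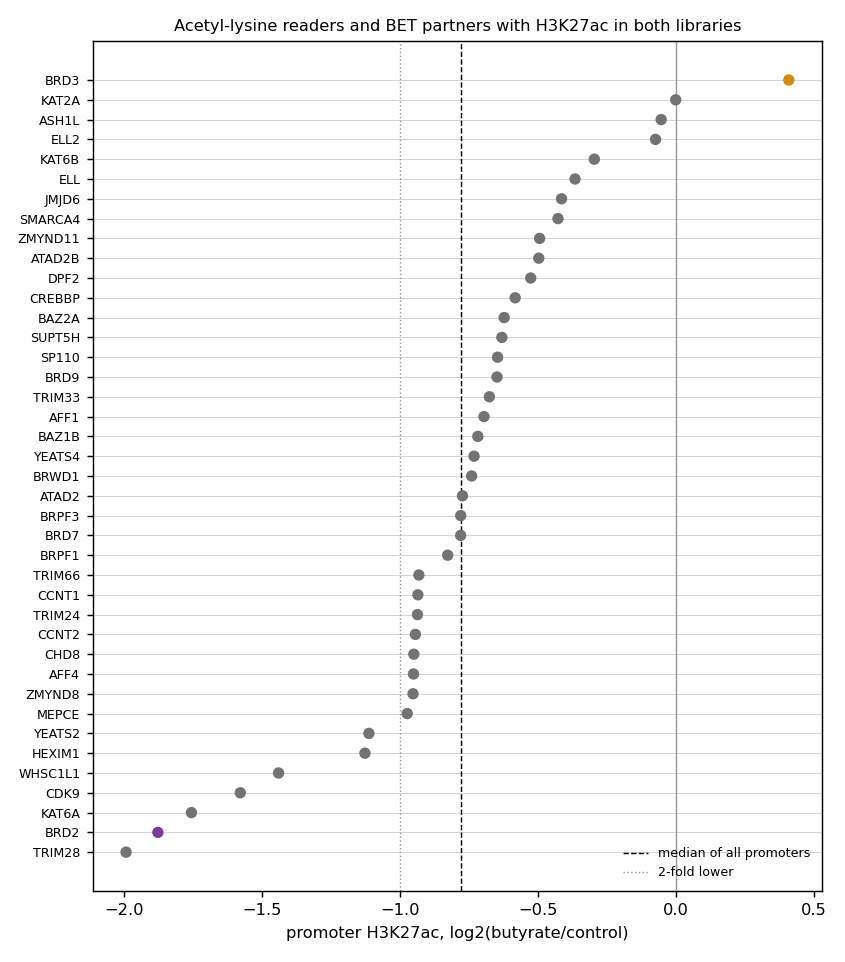
Log2 ratio of promoter H3K27ac, butyrate over control (horizontal axis), for the 40 acetyl-lysine readers and BET partners (vertical axis, sorted) marked in both libraries, with BRD3 in orange and BRD2 in purple, the dashed line at the median of all promoters (-0.78) and the dotted line at 2-fold lower. BRD3 stands at the top with 0.41, the only value above 0, and BRD2 stands last but one with -1.88, above TRIM28.

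Among P-TEFb and the partners of BET proteins, 13 of 16 promoters had H3K27ac in both libraries, with a median of -0.94, and the other 3 had it in control alone. CDK9, the kinase of P-TEFb, had 18.1 after butyrate and 54.1 in control (log2 ratio -1.58). WHSC1L1, an older symbol of the methyltransferase gene NSD3, had 25.8 and 69.9 (-1.44), and HEXIM1, an inhibitor of P-TEFb, had 29.8 and 65.0 (-1.13). The related inhibitor HEXIM2, with 69.2, and MED1, a subunit of Mediator, with 44.6, were called in control alone. NSD3 under that name and KMT2C had no gene start.

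Other bromodomain genes had a median H3K27ac ratio of -0.70 over 20 of 34 promoters, with 6 called in control alone. TRIM28, a corepressor of zinc finger proteins, had 21.9 after butyrate and 87.1 in control (log2 ratio -1.99), the one ratio below that of BRD2. ZMYND8 had 31.6 and 61.2 (-0.95) and TRIM24 had 20.3 and 38.9 (-0.94). PBRM1, a subunit of the PBAF remodeling complex, with 55.6, and BRD8, a subunit of the NuA4 acetyltransferase complex, with 32.03, were called in control alone. BRD1 and EP300 had no gene start.

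The YEATS and double PHD readers had a median of -0.73 over 5 of 10 promoters. The acetyltransferase gene KAT6A had 18.4 after butyrate and 62.1 in control (log2 ratio -1.76), YEATS2 had 32.9 and 71.2 (-1.11), and YEATS4 had 45.8 and 76.1 (-0.73). DPF3, a subunit of BAF complexes, was called in control alone with 17.4. For H3K4me3 the 62 genes had a median log2 ratio of -0.02 over 51 promoters, beside -0.01 over all promoters. H3K4me1 was called in control alone at 17 of the 21 promoters marked in control, and over all promoters at 55.8% of those marked in control. It was called after butyrate alone at 2, and over all promoters at 6.67% of those unmarked in control.

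The promoters most like BRD2 over the 10 libraries were those of YES1, RNF24 and GTF2IRD2, at Euclidean distances of 0.26, 0.38 and 0.39 on log2(signal + 1), where the median distance over 15544 genes with a mark was 9.32. A promoter with no interval counted as 0, and provisional loci (LOC), microRNAs and tRNAs were passed over in choosing the names. The 6 names given here for BRD2 and BRD3 depend on the window, since 0 of them were kept with windows of 1 kb or 5 kb. YES1, a kinase of the Src family, had H3K27ac of 27.5 after butyrate and 105.8 in control, H3K4me3 of 123 and 129, and CTCF of 30.2 and 30.6. RNF24 had a log2 ratio of H3K27ac of -1.56 and GTF2IRD2 one of -1.72. These promoters, like that of BRD2, had a high control H3K27ac, H3K4me3 and a weak CTCF site and neither H3K4me1 nor H3K27me3. They were chosen by these same signals, so the shared pattern and the similar ratios follow from the choice. The same holds for the genes nearest to BRD3.

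Nearest to BRD3 were AGPAT2, an enzyme of phosphatidic acid synthesis, at 0.57, and EME2 and MRPS34, both at 0.66 with shared intervals, where the median distance was 10.8. AGPAT2 had H3K27ac of 34.7 after butyrate and 33.1 in control, H3K4me3 of 140 and 122, and H3K4me1 of 64.5 and 60.4. EME2 and MRPS34 had H3K27ac of 40.2 and 34.4, a log2 ratio of 0.23. BRD2 and BRD3 themselves stood 10.9 apart, more than the median distance from BRD2 (9.32) and close to that from BRD3 (10.8). Targets without a called interval add to this distance, and the nearest H3K4me1 of BRD2 lay just outside the window. Each had a target called at its promoter in both libraries that the other lacked, CTCF at BRD2 and H3K4me1 at BRD3.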

How the data were processed

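Reads of 10 ChIP libraries from REPC were aligned (BWA, UMD3.1) and called with MACS2 per library by the authors, as the submitters' processing notes name the tools. The notes also name Trim Galore 0.4.1, which the paper gives for its RNA-seq and bisulfite data and not for ChIP. H3K27me3 starts all lay on a 200 bp grid, and the setting behind it is not given in the sources used here. The deposited signal is a tag density, as peak and average signal per interval. No source says if positions count from 0 or from 1.

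Gene starts were derived from summits and annotated distances (at least 2 listings, 90% agreement). A promoter took the highest average signal of intervals reaching 2 kb either side. Log2 ratios had no pseudocount. Intervals lay in a gene as the file placed them. Code was tested on simulated data, with Python 3.11.15, numpy 2.4.6, pandas 2.3.3 and matplotlib 3.10.9.

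Members and lists were chosen with earlier results of these data known. Beside the members, the rule named BRDT, up to 3 genes per list with the largest absolute H3K27ac ratio, up to 2 with the highest control signal among those in control alone, the neighboring starts and the 3 most similar genes. The similar genes were taken without provisional loci (LOC), microRNAs and tRNAs. Other genes were named after their values were seen. Alternatives were peak signal, weighted means, windows of 1 kb and 5 kb, centring, scaling on the top 10% of promoters, a stricter interval threshold, a pseudocount of 1, covered bases, and folds of 1.5 and 3. No sequence is shown. Some items are not reported here.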

Additional observations from a re-analysis of the deposited data

How the results depend on the processing

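Of the alternative values, 76 stayed within 1.5 times the value given (log2 ratios taken as folds) and kept their direction, 18 moved by more with no change of sign, and 4 ratios, none past 2-fold in the values given, changed sign. As covered bases in place of interval counts, 5 differences kept their direction and 2 changed sign. Promoter H3K27ac of BRD2 stayed at least 2-fold lower after butyrate in each alternative, with a log2 ratio of -2.51 by peak signal, -1.17 in a 5 kb window, -1.10 after centring and -1.06 after scaling on the top 10% of promoters. That of BRD3 stayed above 0, at 0.05 as a weighted mean, 1.19 after centring and 1.23 after that scaling. H3K4me3 gave 0.047 for BRD2 by peak signal, and for BRD3 0.21 by peak signal and 0.29 as a weighted mean. BRD2 CTCF gave 1.21 in a 5 kb window, which takes in the butyrate site before the start, whereas the control site stays outside it, and it had no value in a 1 kb window or without the weakest intervals. Those that changed sign as covered bases were BRD2 H3K27ac (-1320 bp) and BRD3 H3K4me1 (2809 bp). When the weakest 25% of intervals by peak signal were left out, the difference in intervals was 0 for BRD2 H3K4me3, -1 for BRD2 H3K4me1 and 2 for BRD3 H3K4me3. Of the 62 readers and partners, 18 were past 2-fold or in 1 library for H3K27ac, beside 6559 of all 23869 promoters. The 18 became 39 at 1.5-fold and 40 by peak signal, for which no count over all promoters is given here. Among all 23869 promoters, 1882 were past 2-fold or in 1 library for H3K4me3, 5236 for H3K4me1 and 3093 for H3K27me3. The 2 such genes for H3K4me3 became 1 at 3-fold and 1 without the weakest intervals, the 19 for H3K4me1 became 9 in a 1 kb window, and the 2 for H3K27me3 became 1 in a 1 kb and 6 in a 5 kb window. None of the 6 most similar genes was kept in a 1 kb window (0) or a 5 kb window (0). The causes were not tested beyond what the construction shows.

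With 1 library per target and group, a difference between cultures or libraries cannot be told apart from one between the groups, and no interval of error can be given. Read totals were not used, and signal under the calling threshold was not given. No paired analysis was possible because each group had 1 library per target and no result came from a test.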
